A study of Mus musculus with 24 samples.

Results

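The genes described here lie on the distal part of mouse chromosome 18 and were followed through 2 mouse lung cancer models, LLC1 and KP, as a possible copy number segment. A member is a protein-coding gene whose start in GENCODE mouse release 21 (build GRCm38) falls in a fixed span of that chromosome, from Ecscr, which begins at 35713086, to Gm45871, which begins at 90579777, and which was measurably expressed in LLC1. Measurably expressed means that the mean of at least 1 LLC1 group exceeded the bottom of the table by 1 log2 unit, about 130.4 normalised counts. Symbols beginning with Slc, Nduf, Atp5 or Rp were left out, as were Iigp1, Lox, Spry4, Pdgfrb and Smad7. The span holds 362 annotated protein-coding genes, of which 327 were in the LLC1 table, 151 fell under the threshold and 13 were left out by symbol. That left 163 members among the 10581 LLC1 genes past the threshold. The span was chosen by the measured levels of its genes in relapsed against parental LLC1, so every value of that comparison is a description. The same holds for relapsed against chronic IFNG LLC1, which uses the same relapsed libraries.

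All libraries were bulk RNA-seq of live, CD45-negative cells sorted from tumours 15 days after mice were injected with tumour cells, with 3 libraries in each of 8 groups. LLC1, the Lewis lung carcinoma line, was sampled as parental, as cells exposed to low-level chronic interferon gamma (chronic IFNG), and as tumours relapsed after immune checkpoint blockade. KP, a lung cancer line from an engineered mouse model that carries p53 flox/flox, was sampled as parental, chronic IFNG, 1st relapse, 2nd relapse and late relapse. The treatment label reads "None" for every sample. The labels do not say how many relapse lines or clones stand behind a group, so the p-values measure the spread between these samples.

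This part of chromosome 18 carries genes of many unrelated functions. Among them are the clustered protocadherins, which encode cell-surface adhesion proteins, the TGF-beta signal carriers Smad2 and Smad4, the glucocorticoid receptor gene Nr3c1, and the innate and interferon signalling genes Tmem173 and Ptpn2. When tumour cells gain or lose a stretch of chromosome, RNA from many of its genes can shift together, each in proportion to its gene copies or less. DNA was not measured in the data used here, and the part of copy number in the results was not tested.

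Most members were lower in relapsed than in parental LLC1. The median difference was -0.29 on the deposited variance-stabilised log2 scale, with the middle 50% of members from -0.39 to -0.12, and 143 of 163 members were below 0. In normalised counts the median member stood at 76.0% of its parental level. The deposited scale compresses low genes, but the 80 members with 1000 or more parental counts gave the same ratio, 0.760, with a middle 50% from 0.704 to 0.831. By limma 110 members were called lower (adjusted p under 0.05), where 19.5% of all tested genes were, and 10 were called higher, where 25.9% were; 43 passed neither way. Every relapsed library was below every parental one for 123 members, where this held for 25.2% of all genes, and above for 10, where it held for 33.6%.

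The 3 libraries of each group read alike. The median member deviated from the parental mean by -0.30, -0.27 and -0.26 in the relapsed libraries, by -0.13, -0.15 and -0.15 in chronic IFNG, and by -0.01, 0.02 and -0.01 in parental. The 3 groups did not overlap. Other autosomes stood at 0.03, 0.03 and 0.04 in the relapsed libraries.

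**Figure D1:**
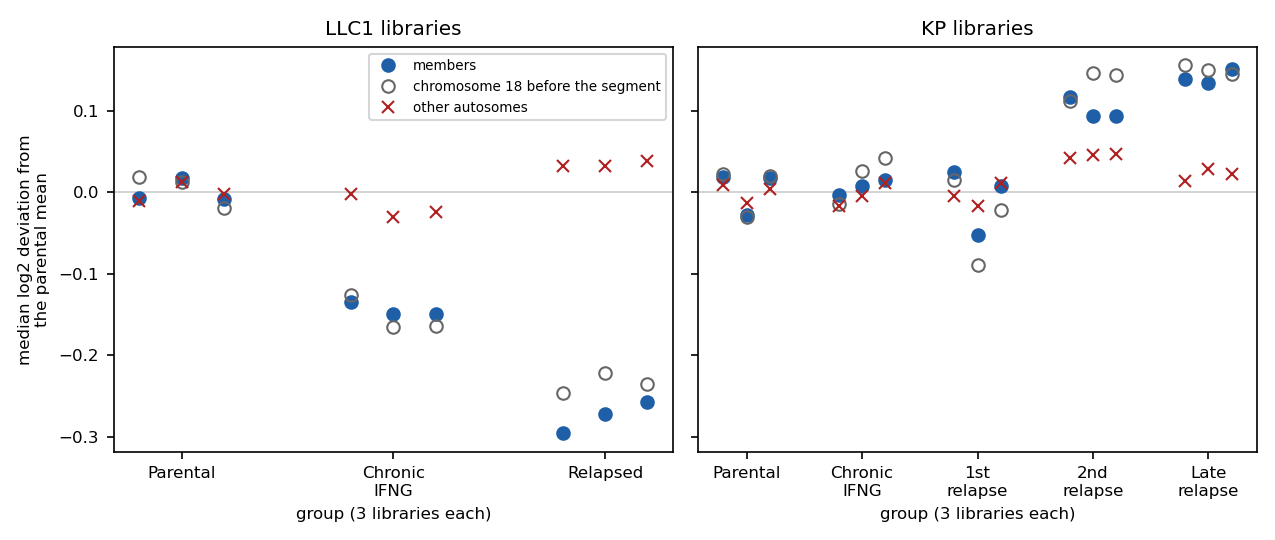
Median log2 deviation from the parental mean (y axis) of the members, of chromosome 18 genes before the segment and of genes on the other autosomes, 1 point per library and gene set, by group of LLC1 (left) and KP (right). Member medians lie at -0.30 to -0.26 in the relapsed LLC1 libraries and at 0.13 to 0.15 in the late relapse KP libraries.

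The lower level was not particular to the span. The 88 genes of chromosome 18 before it had a median of -0.23 in relapsed against parental LLC1, with 82 below 0, 58 called lower and 4 called higher. Over all genes 45.6% were below 0, 19.5% were called lower and 25.9% higher. Values on both sides of the border lay in the same range, with 1 exception inside. The nearest genes outside were Matr3, an RNA-binding protein gene, at -0.31, Paip2, a translation regulator, at -0.29, and Dnajc18, a chaperone gene, at -0.46. The nearest inside were Ecscr, an endothelial surface protein gene, at 0.45, Tmem173 at -0.54 and Ube2d2a, a ubiquitin-conjugating enzyme gene, at -0.29.

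In 18 consecutive stretches of 5 Mb along the whole chromosome, every stretch had a median below 0 in relapsed LLC1, from -0.38 to -0.04. The stretch nearest 0 held 8 genes, 4 of them below 0. Only 4 stretches held 20 genes or more, with medians of -0.27, -0.27, -0.31 and -0.29. At the far end Rttn stood at -0.39, and Tmx3 and Gm45871 both at -0.12; no tested gene lay beyond them.

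**Figure D2:**
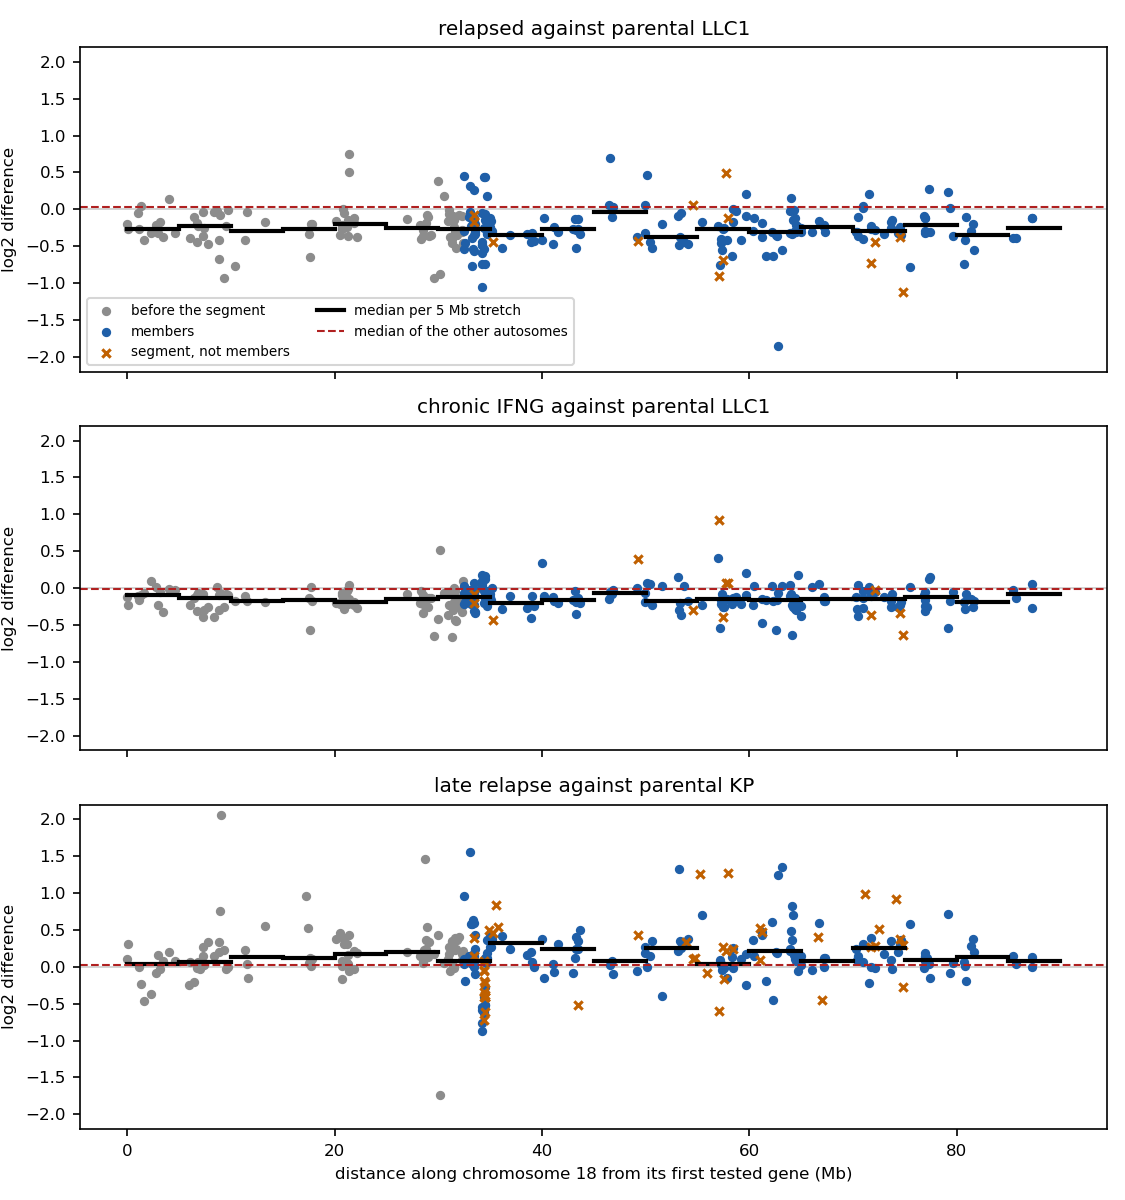
Log2 difference of each tested protein-coding gene of chromosome 18 (y axis) against its distance in Mb from the first tested gene (x axis), for relapsed LLC1, chronic IFNG LLC1 and late relapse KP, each against its parental group. Black lines are medians of 5 Mb stretches, which lie below 0 along the chromosome in both LLC1 panels and above 0 in the KP panel; the dashed line is the median of the other autosomes.

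Among 20 chromosomes, the autosomes and X, chromosome 18 had the lowest median in relapsed against parental LLC1, at -0.27. Chromosome 11 was next at -0.11, and chromosome 3 lay at the other end at 0.30, so that chromosome 18 was not alone in standing away from 0. In relapsed against chronic IFNG LLC1, chromosome 18 was the third from the lowest at -0.094, after chromosome 11 at -0.10 and chromosome 7 at -0.097.

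**Figure D3:**
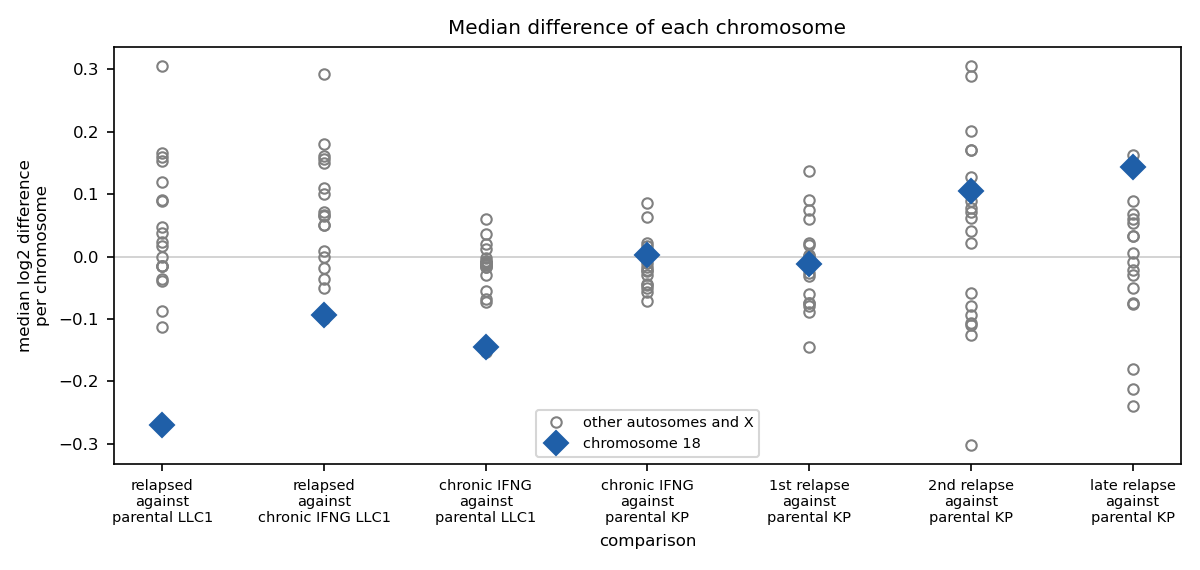
Median log2 difference of each chromosome (y axis) in the 7 comparisons (x axis), with chromosome 18 as a diamond. Chromosome 18 is the lowest of 20 in relapsed against parental LLC1, at -0.27, and lies near the top in late relapse against parental KP, at 0.14.

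The expression threshold touched few members. All 3 LLC1 groups passed it for 144 members, whose median in relapsed against parental LLC1 was also -0.29. Of the other 19, Ecscr, Cystm1 and Pcdhgb2 passed through the relapsed group alone, Prelid2 through parental and Gm4951 through chronic IFNG. These 5 are members because 1 group was high, so their direction in comparisons with that group was fixed by the threshold. For Gm4951 these comparisons do not include relapsed against parental LLC1. Just above the threshold lay Cystm1 at 0.31, Prelid2 at -0.34 and Ska1 at 0.05, and just under it Fgf1 at -0.32, Taf7 at 0.06 and F830016B08Rik at -0.26.

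In relapsed LLC1, 67.5% of all members were called lower and 6.13% higher, against 19.5% and 25.9% of all genes. These shares belong beside each role count of relapsed LLC1 below. The chromatin, protocadherin, innate and actin lists lay near the share of all members, at 64.3% to 66.7% lower, and other lists on both sides of it. No list was tested against the other members. By role, 13 of 13 members of RNA processing and export were called lower in relapsed LLC1, with a median of -0.32. Ik, a splicing factor gene, had 1843, 1904 and 1673 normalised counts in the parental libraries, 1553, 1578 and 1595 in chronic IFNG and 1173, 1417 and 1368 in relapsed. The 3 groups lay in that order without overlap. Seh1l, a nuclear pore gene, went from 2104 ± 169 (SD, n = 3) to 1598 ± 48.4.

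Of 7 members for tRNA charging and ribosome making, 6 were called lower in relapsed LLC1, with a median of -0.38. Nars, which charges tRNA with asparagine, had 5712, 4977 and 5243 counts in parental, 3867, 3498 and 3716 in chronic IFNG and 3995, 3903 and 4012 in relapsed LLC1. Both later groups lay below every parental library. The histidine enzyme gene Hars stood at 1795 ± 81.9, 1317 ± 46.0 and 1334 ± 39.1. Of 17 cytosolic tRNA synthetase genes elsewhere in the genome, 4 were called lower and 2 higher, where 19.5% and 25.9% of all genes were. Their median in relapsed LLC1 was 0.03.

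Of 4 members in SMAD and TGF-beta signalling, 3 were called lower, with a median of -0.33. Smad4, the shared partner of receptor-activated SMAD proteins (chromosome 18, 73639009 to 73703780), had 2388, 2331 and 2131 counts in parental, 1743, 1845 and 1798 in chronic IFNG and 1726, 1854 and 1665 in relapsed LLC1. Chronic and relapsed libraries overlapped, and both lay below parental. Smad2, a receptor-activated SMAD, went from 1704 ± 90.4 through 1525 ± 74.1 to 1250.2 ± 53.3, and Nedd4l, a ubiquitin ligase gene, from 1559 ± 32.4 through 1342 ± 112 to 845 ± 43.1. Of 20 SMAD pathway genes on other chromosomes, 4 were called lower and 5 higher, near the shares over all genes (19.5% and 25.9%). Among them the receptor gene Tgfbr2 stood at 0.58.

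Of 6 innate and immune signalling members, 4 were called lower and 1 higher in relapsed LLC1. Tmem173, which encodes the DNA-sensing adaptor STING (chromosome 18, 35733679 to 35740554), had 1457, 1428 and 1290.5 counts in parental, 1169.6, 1416 and 1361 in chronic IFNG and 809, 835 and 811 in relapsed LLC1. Relapsed libraries lay below all the others, which overlapped each other. Ptpn2, a phosphatase that dampens JAK-STAT signalling, had 1162, 1064 and 1064 counts in parental, 834, 767 and 882 in chronic IFNG and 794, 846 and 813 in relapsed, so that the later groups overlapped below parental. Of 16 JAK-STAT genes elsewhere, 3 were called lower and 4 higher, where 19.5% and 25.9% of all genes were. Stat3 stood at -0.45 and Jak1 at 0.29.

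Cd14, a receptor for bacterial products and a macrophage marker, was the immune member called higher. It had 223, 186 and 207 counts in parental, 132, 129 and 140.4 in chronic IFNG and 299, 309 and 311 in relapsed LLC1, without overlap. The 10 macrophage markers, of which Cd14 is one, summed to 432 to 514 counts in parental, 389 to 426 in chronic IFNG and 603 to 1053 in relapsed LLC1. Most of the difference was Lyz2, with means of 38.1, 85.4 and 286, while the means of Adgre1 were 8.11 to 8.45 and of C1qa 4.46 to 14.5. Cd68 stood lower, at 151 in parental, 102 in chronic IFNG and 98.1 in relapsed. The part of macrophages in the level of Cd14 was not tested, and in bulk RNA fewer cells of a type and less RNA per cell cannot be told apart.

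Among chromatin and transcription factor members, 11 of 17 were called lower and 1 higher, with a median of -0.30. Nr3c1 had 3969.8, 3868 and 3536 counts in parental, 3229.9, 3026 and 2869 in chronic IFNG and 2261, 2602 and 2607 in relapsed LLC1, in steps that did not overlap. Hdac3, a histone deacetylase gene, stood at 1791 ± 53.0, 1449 ± 97.6 and 1329 ± 33.0. Of 5 genes for its NCoR complex partners elsewhere, none was called lower by limma (nor at an unadjusted p under 0.05: 0) and Tbl1xr1 was called higher, at 0.43. Glucocorticoid receptor targets split, with 4 of 11 called lower and 4 higher, where 19.5% and 25.9% of all genes were. The metallothionein genes Mt2 and Mt1 stood at -1.94 and -1.70, and the phosphatase gene Dusp1 at 0.95. Setbp1, a DNA-binding protein gene, was 4.79-fold lower, at 62.3 ± 9.25 against 299 ± 41.7, and the zinc-finger gene Tshz1 2.07-fold lower, at 764 ± 30.6 against 1579 ± 88.4.

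All 5 growth factor, kinase and cell death members were called lower (all members 67.5%, all genes 19.5%), with a median of -0.55. Csnk1a1, a casein kinase that marks beta-catenin for destruction (chromosome 18, 61555274 to 61590061), had 7979.8, 7563 and 7071 counts in parental, 6743, 6304 and 6284 in chronic IFNG and 4516, 4729 and 4852 in relapsed LLC1. No library of 1 group reached the next. Hbegf, an EGF-family ligand, went from 1157 ± 39.0 through 975 ± 183 to 509 ± 42.8, and Pmaip1, which encodes the cell death protein NOXA, from 257 ± 40.1 through 269.8 ± 58.2 to 87.7 ± 12.5.

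Ccbe1, which encodes a secreted protein needed for lymphatic vessel growth (chromosome 18, 66045302 to 66302741), had the lowest difference of all members. It had 4879, 4122 and 4929.8 counts in parental, 4549.5, 4259.7 and 4421 in chronic IFNG and 827, 996 and 1013 in relapsed LLC1. The relapsed mean was 4.91-fold lower, a log2 difference of -1.86, while chronic IFNG and parental libraries overlapped.

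Vesicle traffic and autophagy held 12 of 16 members called lower (all members 67.5%, all genes 19.5%) and 1 higher, with a median of -0.27. Lman1, a cargo receptor of the early secretory path, had 6329.6, 6919.9 and 6377 counts in parental, 6124, 5699 and 5549.9 in chronic IFNG and 5019, 4915 and 4997 in relapsed LLC1, in falling order without overlap. The 1 member called higher was Dmxl1, which helps to acidify endosomes. Its counts were 2335, 2266 and 3029 in parental, 3339.5, 2025 and 2027 in chronic IFNG and 4933, 3933 and 4382 in relapsed LLC1, the highest difference of all members at 0.70.

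Of 17 mitochondrial and metabolic members, 10 were called lower (all members 67.5%, all genes 19.5%) and 1 higher, with a median of -0.18. Afg3l2, a protease of the inner mitochondrial membrane, went from 1763 ± 45.1 through 1437 ± 57.4 to 1304 ± 43.6. The ferrochelatase gene Fech, which completes haem, stood at 1087 ± 58.4, 936 ± 127 and 909 ± 24.8. Among ubiquitin and protein turnover genes 5 of 6 were called lower, among centrosome, tubulin and lamina genes 4 of 7, among actin and membrane-shape genes 4 of 6, and of the 2 matrix members both, Ccbe1 and Ndst1.

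The clustered protocadherins stood low in relapsed but not in chronic IFNG LLC1. In relapsed LLC1, 9 of 14 were called lower (all members 67.5%, all genes 19.5%) and 2 higher, with a median of -0.46. In chronic IFNG LLC1 none of the 14 was called by limma, 1 was lower and 2 were higher at an unadjusted p under 0.05, and the median was 0.06. Pcdhb17 had 445, 471 and 485 counts in parental, 552, 475 and 413 in chronic IFNG and 71.4, 86.2 and 63.8 in relapsed LLC1, where the relapsed libraries lay far below both other groups. Pcdhgc3 went from 4471 ± 508 through 4259.8 ± 201 to 2481 ± 159. Both members called higher were gamma genes, Pcdhgb2 from 75.5 ± 15.1 to 194 ± 22.5 and Pcdhgb6 from 277 ± 13.0 to 499.5 ± 48.7. Gamma genes share their last exons and beta genes are near copies, so their reads could be split between them, and their separate values are uncertain.

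The other members called higher in relapsed LLC1 were Ppic, Acaa2, Nfatc1 and Mbp, and Ecscr and Cystm1, which like Pcdhgb2 had to be higher to pass the threshold. Ppic, a cyclophilin gene, had 3029, 3551 and 3567 counts in parental, 3719, 3441 and 3544 in chronic IFNG and 4821, 4842 and 4898 in relapsed LLC1. Mbp, known for myelin basic protein, had 503, 479.5 and 550.0 in parental, 214, 261 and 259 in chronic IFNG and 653, 668 and 679 in relapsed LLC1, so that chronic IFNG was lowest. Ecscr went from 89.7 ± 24.7 to 219.9 ± 17.3, while the 7 endothelial markers summed to 1304 to 1509 counts in parental and 856 to 991 in relapsed LLC1, mostly Eng and Flt1. Pericyte markers summed to 131 to 195 counts in parental and 293 to 367 in relapsed LLC1; Acta2 alone carried this, with means of 58.0 and 225, while Rgs5 stood at 17.5 and 8.41 and Mcam at 63.6 and 68.1. Neutrophil markers summed to 25.4 to 34.7 and 68.6 to 169.8, and erythroid markers to 5.95 to 11.8 and 51.6 to 549.6, in parental and relapsed LLC1. Their part in these members' levels was not tested.

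**Figure D4:**
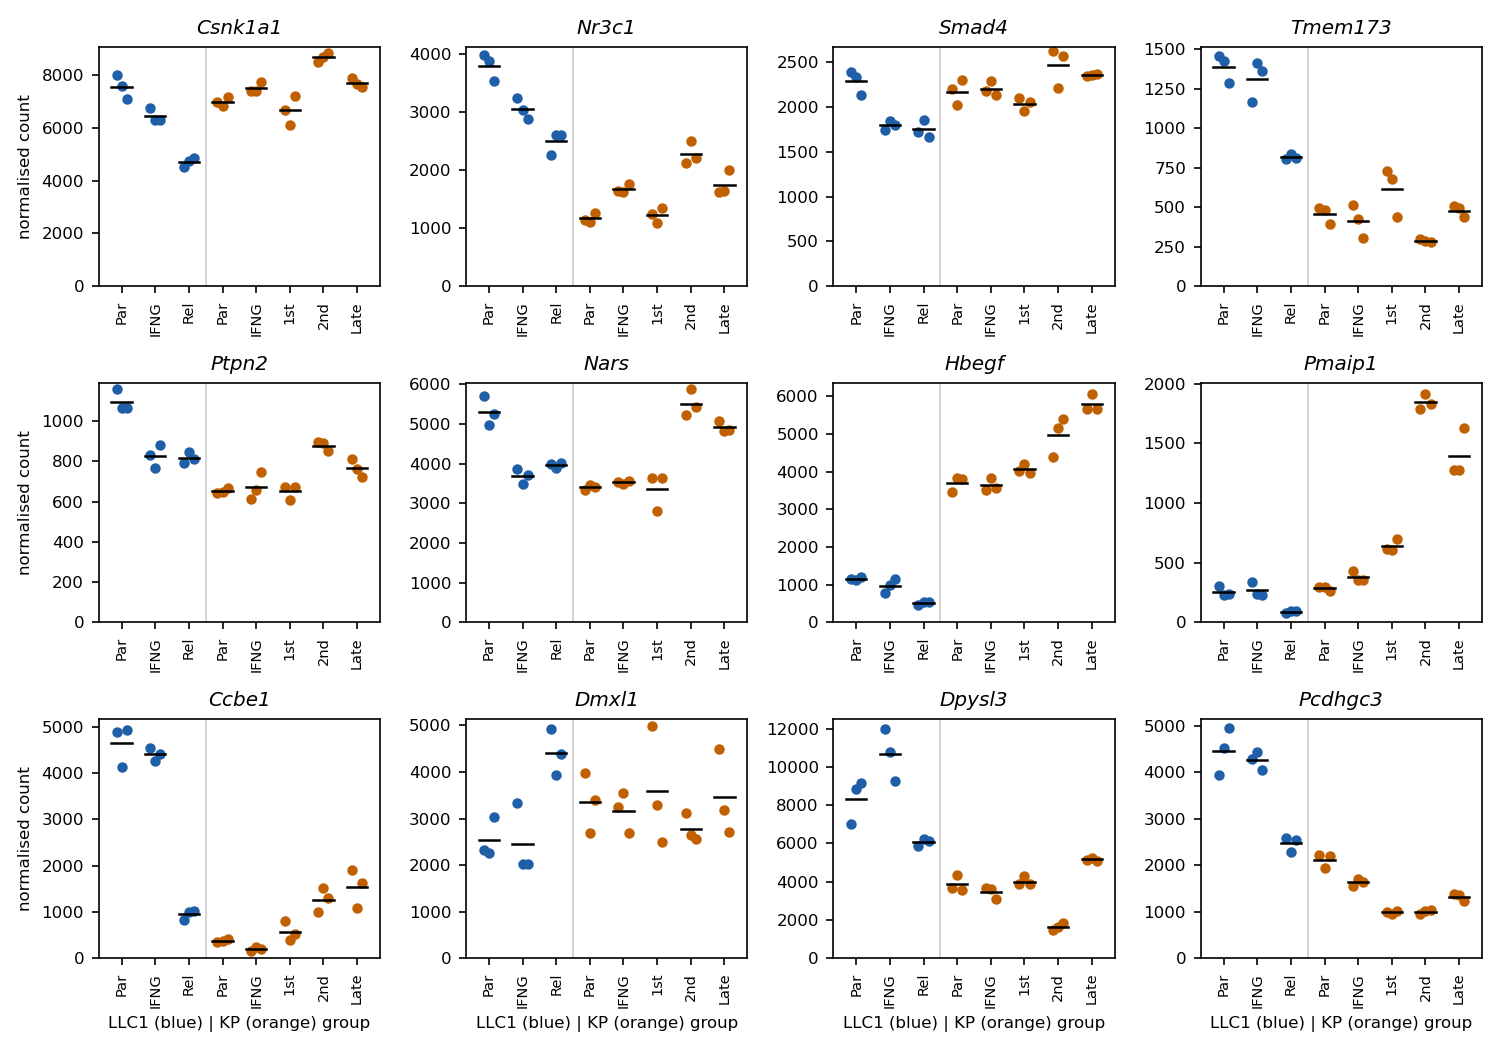
Normalised counts (y axis, linear from 0) of 12 members in each library, with points for libraries and bars for group means, over the 3 LLC1 and the 5 KP groups. Csnk1a1 and Nr3c1 step down through the LLC1 groups, Smad4 and Nars are already low in chronic IFNG, Ccbe1 is lowest in relapsed LLC1, and Pmaip1 is high in the 2nd and late relapse of KP; the 2 lines were normalised separately, so levels do not compare between them.

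Chronic IFNG LLC1 also stood below parental, by less. The comparison shares the parental libraries with the one above, so its values stand beside them and are not independent of them. The median member was at -0.14, or 86.8% of its parental level, with 128 of 163 below 0, against -0.02 on the other autosomes. By limma 63 members were called lower, where 15.5% of all genes were, and 2 higher, where 9.03% were. Without parental replicate 2 the first count was 41, while over all genes it fell from 1641 to 1049. The second was 0 without parental replicate 1, parental replicate 2 or chronic IFNG replicate 2 (3, 6 and 4 at an unadjusted p under 0.05 in limma), 1 without chronic IFNG replicate 1 and 6 without chronic IFNG replicate 3. Over all genes the number higher was 955, and 507 to 1057 with 1 replicate left out. The 88 genes before the segment had a median of -0.15, with 38 called lower and none higher (1 at an unadjusted p under 0.05). Chromosome 18 had a median of -0.14 and chromosome 12 one of -0.15, the lowest 2 of the 20 chromosomes.

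The lowest called members in chronic IFNG LLC1 were Tubb6, a tubulin gene, at -0.64 (SE 0.095, limma adjusted p = 0.0016), Sec11c, a signal peptidase subunit gene, at -0.57 (adjusted p = 7.0e-04), and Smim3 at -0.54 (adjusted p = 0.0019). Tubb6 had 3744, 4273 and 3269 counts in parental, 2004, 2183 and 2537 in chronic IFNG and 2687, 3139.5 and 2865 in relapsed LLC1, so that relapsed lay between the other groups. Mbp stood at -0.54, Nars at -0.47 and the leucine tRNA enzyme gene Lars at -0.41. The 2 called higher were Dpysl3, a cytoskeleton regulator, at 0.34 (limma adjusted p = 0.036), and Gm4951, a relative of the interferon-induced gene Iigp1, at 0.40 (adjusted p = 0.024). Dpysl3 had 7001, 8829.8 and 9155 counts in parental and 11981, 10774 and 9278 in chronic IFNG, and its call was lost without a low-value filter, in a fit of the 2 groups alone, and without parental replicate 1 or 2 or chronic IFNG replicate 1 or 2. Gm4951 had 89.4 ± 20.6 in parental and 209 ± 84.7 in chronic IFNG; it passed the threshold through chronic IFNG alone, so its direction was fixed by it. Its call was lost without a low-value filter, in a fit of the 2 groups alone, and without parental replicate 1 or 2 or chronic IFNG replicate 2. It was outside the rule for named genes and was chosen after its values were seen.

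By role, the members called lower in chronic IFNG LLC1 were 7 of 13 in RNA processing, 4 of 7 in tRNA charging and ribosome making, 7 of 16 in vesicle traffic, 7 of 17 in mitochondria and metabolism, 6 of 17 in chromatin and transcription, and 2 of 4 in SMAD signalling. They were also 4 of 7 for centrosome, tubulin and lamina, 3 of 5 growth factors, kinases and cell death genes, 2 of 6 in innate signalling, 2 of 6 in ubiquitin and protein turnover, and 1 of 2 in matrix. Over all genes the share was 15.5%. In the actin and membrane-shape list 1 of 6 was called lower and 1, Dpysl3, higher. The fibroblast markers moved as well in this group: the 10 genes summed to 256415 to 364248 counts in parental, 456758 to 737911 in chronic IFNG and 282747 to 314751 in relapsed LLC1, most of it Col3a1. In relapsed LLC1 Col3a1 stood near its parental mean, at 272367 against 268299. The means of Dpt and Pdgfra stood higher, at 2155 against 1637 and 5855 against 5074. Others stood lower, such as Dcn at 9718 against 19376, Col1a1 at 1026 against 2019, Col1a2 at 670.2 against 1739 and Lum at 10429 against 14942. The part of this in the members' levels was not tested.

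Relapsed LLC1 stood below chronic IFNG LLC1 as well, which the choice of the span favours, since it was made on the relapsed libraries. The median member was at -0.11 for relapsed against chronic IFNG, and limma called 67 lower, where 20.5% of all genes were, and 19 higher, where 31.5% were; nothing is read from these counts. Over the 3 group means, 88 members (54.0%) stood in falling order from parental through chronic IFNG to relapsed. Another 25 were highest in parental and lowest in chronic IFNG, 30 were lowest in relapsed and highest in chronic IFNG, 15 were lowest in chronic IFNG and highest in relapsed, and 5 were lowest in parental. The orders were not counted over all genes. They also rest on the relapsed libraries that chose the span, so nothing is read from them. Mbp had the highest difference, at 0.77, and Ccbe1 the lowest, at -1.80.

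KP took no part in choosing the members, and 155 of the 163 passed its filter; Dtwd2, Elac1, Gm4951, Pcdhb20, Pcdhb21, Pcdhb22, Sh3tc2 and Ska1 did not. All 4 KP comparisons share the parental KP libraries. In chronic IFNG KP the median member was at 0.00, with 35 called in either direction, where 21.8% of all genes were. Of these 20 were higher, where 12.8% of genes were, and 15 lower, where 1007 of the 11193 genes were; both counts moved with single libraries. The number lower was 9 without parental replicate 1, parental replicate 3 or chronic IFNG replicate 3, and 7 without chronic IFNG replicate 1. Over all genes the number lower also fell, from 1007 to 642, 765, 702 and 514 in that order. The number higher was 12 and 13 without parental replicates 1 and 2, and 11 and 13 without chronic IFNG replicates 1 and 3. Over all genes the number higher fell as well, from 1431 to 1198, 1137, 1069 and 1081 in that order. In the 1st relapse the median was -0.01, with 35 called lower, where 25.5% of genes were, and 35 higher, where 25.4% were. That split became 41 lower and 26 higher under quantile normalisation, and 44 and 29 under median centring. Over all genes the split moved too, from 2851 and 2846 to 3597 and 2407, and to 3537 and 2406.

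In the 2nd and late relapses of KP the members stood higher than in parental KP. The 2nd relapse median was 0.10, against 0.04 on the other autosomes, with 72 called higher, where 36.8% of genes were, and 32 lower, where 29.0% were. Quantile normalisation lowered that median to 0.035. In late relapse the median was 0.14, or 115% of the parental level, against 0.02 on the other autosomes, with 80 called higher, where 31.0% of genes were, and 19 lower, where 25.9% were. Its 3 libraries had medians of 0.14, 0.13 and 0.15, above the parental ones at -0.03 to 0.02.

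Genes outside the span stood higher as well in these groups. Genes before the segment had medians of 0.12 in the 2nd and 0.16 in the late relapse. All 18 stretches of 5 Mb were above 0 in late relapse, from 0.04 to 0.33. In the 2nd relapse all but 1 were, up to 0.30; the stretch below 0 held 23 genes with a median of -0.022, and the one with the most genes, 71, had a median of 0.035 with 34 below 0. In late relapse chromosome 18 ranked the 17th from the lowest of 20, at 0.14, with chromosomes 3, 5 and 11 above it and chromosome 13 lowest at -0.24. In the 2nd relapse it ranked the 14th from the lowest, at 0.105, between X at -0.30 and chromosome 15 at 0.31.

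**Figure D5:**
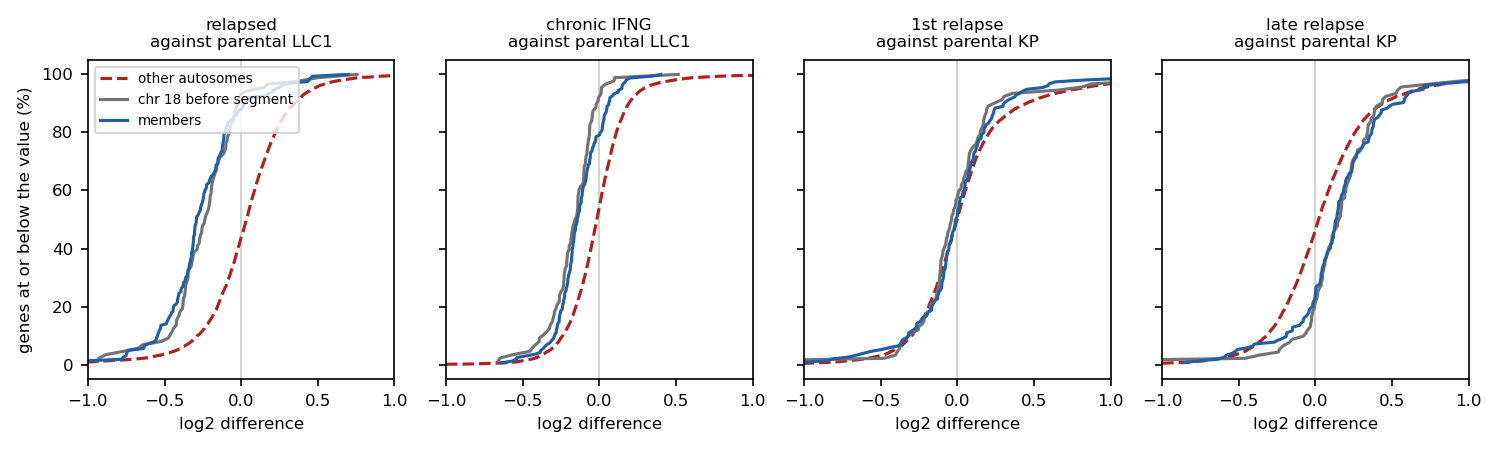
Share of genes at or below a given log2 difference from parental cells (y axis, percent) for the members, chromosome 18 before the segment and the other autosomes, in relapsed and chronic IFNG LLC1 and in 1st and late relapse KP. The member curve lies left of the other autosomes in both LLC1 panels (medians of -0.29 and -0.14) and right of them in late relapse KP (0.14).

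By role, the members called higher in late relapse KP were 13 of 16 in vesicle traffic, 11 of 16 in mitochondria and metabolism with 1 lower, 5 of 7 for centrosome, tubulin and lamina, 4 of 5 growth factors, kinases and cell death genes and 6 of 13 in RNA processing. They were 4 of 6 in innate signalling, 3 of 7 in tRNA charging and ribosome making, 3 of 6 in actin and membrane shape, 3 of 6 in ubiquitin and protein turnover and 1 of 2 in matrix. Over all genes the share was 31.0%. Other lists were split, with 5 of 17 chromatin and transcription factor members higher and 4 lower, and 1 of 4 SMAD members higher and 1 lower. Pmaip1 had 298, 299 and 265 counts in parental, 611, 602 and 699.7 in the 1st, 1789.6, 1913 and 1830.1 in the 2nd and 1278, 1279 and 1629 in late relapse. Its log2 difference was 1.66 in the 2nd (SE 0.066, limma adjusted p = 4.3e-11) and 1.35 in late relapse (adjusted p = 1.3e-09). All libraries of both groups lay above parental.

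Ccbe1 had 357, 368 and 408 counts in parental KP and 1897, 1084 and 1629 in late relapse, a log2 difference of 1.25 (SE 0.15, limma adjusted p = 9.9e-06). Aldh7a1, a lysine breakdown enzyme gene, rose from 359 ± 31.1 to 1557 ± 144, and Cystm1, a small membrane protein gene, from 669 ± 54.0 to 2926 ± 291. Nr3c1 rose by 0.42 (limma adjusted p = 2.2e-04). Smad4 stood at 0.10 and did not pass (adjusted p = 0.15), and Nedd4l fell in the 2nd relapse, with a log2 difference of -0.97 (adjusted p = 1.7e-08).

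Cd14 rose in every KP group, from 329 ± 26.9 in parental to 1051 ± 259 in chronic IFNG, 1324 ± 121 in the 1st, 1459 ± 111 in the 2nd and 701 ± 105 in late relapse. The macrophage markers summed to 2182 to 3071 counts in parental KP, 8044 to 8919 in the 2nd and 5346 to 7662 in late relapse, mostly Mrc1, with means of 1629.7, 6879 and 5198. Most other macrophage markers stood lower in the 2nd relapse than in parental KP, such as Lyz2 at 31.1 against 161, Cd74 at 36.5 against 227, C1qa at 5.62 against 19.8 and Adgre1 at 1.27 against 6.63. Epithelial markers summed to 99058 to 101182 in parental and 197646 to 214769 in the 2nd relapse. Their part in the members' levels was not tested.

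Protocadherins fell in all 3 KP relapse groups. Of 11 tested, 10 were called lower in each, where 25.5%, 29.0% and 25.9% of all genes were, with medians of -0.50, -0.45 and -0.54. In chronic IFNG KP 6 were, where 1007 of the 11193 genes were, with a median of -0.18. Pcdhb16 had 542, 372 and 568 counts in parental, 154, 98.8 and 115 in the 1st and 109, 119 and 121 in late relapse, apart from parental in every library. Pcdhga10 had 930.3, 784 and 810.3 in parental and 74.7, 116 and 83.3 in the 2nd relapse, a 9.23-fold lower mean. In the 1st relapse the remaining one, Pcdhgb6, rose by 0.33 (limma adjusted p = 1.4e-04). Beside them Zfp608, a zinc-finger gene, fell in the 2nd relapse, at -1.26 (limma adjusted p = 4.4e-11), as did Dpysl3 at -1.01 (adjusted p = 4.6e-08). The fibroblast markers summed to 14581 to 23474 counts in parental KP, 63973 to 87545 in the 1st, 1527 to 2446 in the 2nd and 12706 to 60796 in late relapse, and their part was not tested.

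Of 119 members that were lower in every relapsed LLC1 library than in every parental one and were tested in KP, 67 were higher in every late relapse KP library than in every parental one, where 33.6% of KP genes were, and 13 were lower, where 28.7% were. Among all 155 members tested in KP, whatever their direction in LLC1, 82 were higher and 20 lower in this way. The difference between the lines was not tested.

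Estimated library size ran from 13.3 M to 35.0 M fragments in LLC1 and from 13.7 M to 32.6 M in KP. In LLC1 it was 18.5 M and more in parental, at most 18.6 M in chronic IFNG and 20.4 M to 24.2 M in relapsed, so that chronic IFNG and relapsed did not overlap. Relapsed LLC1 libraries detected 22104 to 22661 genes, fewer than the 23495 to 29069 of the other LLC1 libraries; the part of this in the results was not tested. LLC1 libraries held the keratin genes Krt8 and Krt18 (group means of 2587 to 4174) but little Epcam or Cdh1 (0.595 to 12.8), while KP held all of them, and Ptprc, the CD45 gene, stayed low in both (group means of 16.6 to 44.5 in LLC1 and 28.4 to 105 in KP).

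Overlapping genes can trade reads unless strand was used in counting, which is not given in the sources used here. Of the 163 members, 90 overlap another annotated gene, 42 of them a protein-coding one; Hars overlaps Hars2, and Aldh7a1 overlaps Phax. The 73 that overlap none had a median of -0.29 in relapsed and -0.15 in chronic IFNG LLC1, and the 69 of these tested in KP had one of 0.19 in late relapse.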

How the data were processed

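The authors' deposited tables hold variance-stabilised log2 values for 9 LLC1 and 15 KP libraries, one table per line, normalised separately. Stranded total RNA libraries were sequenced as paired 50-base reads, per the labels' protocols. Among the tools listed in the submitters' processing notes are DESeq2 1.34.0, Salmon 1.8.0 and cutadapt 2.9, with the build GRCm38 and no stated roles. Normalised counts were back-calculated from the log2 values, taking each table's lowest value as a count of 0. Each library's size factor was chosen to bring the most low values within 0.15 of a whole read, which held for 74.1 to 78.2% in LLC1 and 72.9 to 79.3% in KP, so library sizes and counts are estimates.

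limma 3.58.1 (R 4.3.3) with a mean-variance trend was fitted to all groups of a line, over 10581 LLC1 and 11193 KP genes with a group mean at least 1 log2 unit over the table's minimum. Benjamini-Hochberg adjustment ran over all of them, with calls under 0.05. The scripts were tested on simulated data. GENCODE mouse release M21 gave symbols and positions; 70 LLC1 and 85 KP identifiers had none. Named genes were the members with the most counts, the largest differences in each comparison, the highest levels in each role list and those at the edges of the rule; from lists elsewhere, the largest called differences. Hdac3, Acaa2, Nfatc1, Tmx3, Gm45871 and the members not tested in KP fall outside that rule and were chosen after their values were seen. Members and lists were chosen with earlier results of these data known. Some genes and alleles are not reported here.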

Additional observations from a re-analysis of the deposited data

Results flagged for a closer look

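The median of the members moved in opposite directions in relapsed LLC1 and in the 2nd and late relapse of KP. Every relapsed LLC1 library had a median below every parental one. Every library of the 2nd and late relapse of KP had a median above every parental one. The KP group medians were 0.10 and 0.14, against 0.04 and 0.02 on the other autosomes. This did not hold for every member. Of the 119 lower in every relapsed LLC1 library and tested in KP, 13 were lower in every late relapse library too. Over all KP genes this share was 28.7%, and among all 155 members tested in KP 20 were. Of 11 protocadherins, 10 were called lower in late relapse, where 25.9% of all KP genes were. In the 1st relapse the median was -0.01. The difference between the lines was not tested. The same held, library by library, for 18 named members in late relapse KP. Their log2 differences there were 0.43 for Hars, 0.82 for Tubb6, 0.38 for Ndfip1, 0.42 for Nr3c1, 0.58 for Hbegf, 0.38 for Dpysl3, 1.35 for Pmaip1, 0.37 for Afg3l2 and 0.70 for Spire1. They were 0.58 for Setbp1, 0.47 for Nars, 0.43 for Fech, 0.61 for Malt1, 0.41 for Tmed7, 1.25 for Ccbe1, 1.32 for Aldh7a1, 0.41 for Rnf14 and 0.34 for Csnk1g3. In relapsed LLC1 the same members stood between -1.86 (Ccbe1) and -0.15 (Spire1). Ccbe1, Setbp1 and Hbegf were named for their low values in relapsed LLC1. Ccbe1, Aldh7a1 and Pmaip1 were named for their high values in late relapse KP. The direction of such members was fixed by the choice, so nothing is read from the number that moved oppositely.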

How the results depend on the processing

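Same-numbered replicates did not vary together (r from -0.30 to 0.08 in LLC1 and -0.22 to 0.27 in KP), so the numbers were not taken as pairs. With a replicate block 1 member was called higher in chronic IFNG LLC1 instead of 2, while over all genes 814 were instead of 955. No other count of members moved by over 1.5 times. No median of the members changed sign among those away from 0. A stricter filter leaves 44 members in LLC1 and 49 in KP. It gave medians of -0.32 in relapsed and -0.20 in chronic IFNG LLC1. In the 1st, 2nd and late relapse of KP they were -0.067, 0.15 and 0.17. In LLC1 the counts lower and higher were 37 and 2, 25 and 1, and 20 and 4 (relapsed against chronic). Over all 3218 LLC1 genes past this filter they were 825 and 951, 848 and 362, and 732 and 1175. In the 4 KP comparisons the member counts were 6 and 3, 13 and 6, 8 and 25, and 3 and 29. Over all 3347 KP genes past it they were 562 and 410, 1325 and 676, 1000 and 1515, and 1059 and 1138. Median centring gave -0.32, -0.15 (relapsed against chronic) and -0.13 in LLC1, and -0.025, -0.046, 0.058 and 0.11 in KP. Quantile normalisation gave -0.14 and -0.13 for relapsed against chronic and chronic against parental LLC1, and 0.035 and 0.11 for the 2nd and late relapse. Logs of counts with a pseudocount of 10 gave -0.39, -0.18 and -0.21 in LLC1 and 0.13 and 0.20 in the 2nd and late relapse, since the deposited scale compresses low genes. Without protocadherins the values were -0.088 (relapsed against chronic), -0.16 (chronic against parental) and 0.13 (2nd relapse). Of the 144 members then left in KP, 9 were lower in chronic IFNG and 9 in late relapse. Over all genes 1007 of 11193 and 25.9% were. From 40 Mb on, chronic IFNG LLC1 stood at -0.16, and 5 of 120 members were higher in relapsed LLC1, where 25.9% of all genes were. Of 115 members tested in KP from there on, 7, 23, 20 and 8 were lower in the 4 comparisons. Over all KP genes 1007 of 11193, 25.5%, 29.0% and 25.9% were. With no filter 8 of 155 members were lower in chronic IFNG KP, where 733 of 36040 genes were. In chronic IFNG LLC1, 0 of 163 were then higher, where 755 of 31618 genes were. Fitting 2 groups only also gave 0 higher there, where 663 of 10581 genes were. At an unadjusted p under 0.05 in limma these counts of 0 were 5 and 3. Keeping the left-out symbols gave 4 of 176 higher there. Leaving out 1 replicate gave -0.29 to -0.27 for the relapsed LLC1 median, 0 to 6 higher and 41 to 57 lower for chronic IFNG LLC1 (41 without parental replicate 2), and 11 to 20 higher and 7 to 14 lower for chronic IFNG KP. Over all genes these counts moved too, over 507 to 1057 and 1029 to 1691 in LLC1, and 1069 to 1508 and 514 to 1075 in KP. Stretches of 10 Mb turned the highest stretch of relapsed against chronic LLC1 from 0.015 to -0.058. Of 310 values of named genes, 248 kept their call in every setting, 62 lost it in 1 or more and 0 reversed; the cause was not tested.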
